A study of Mus musculus with 14 samples.

Results

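Intermediate filaments are the ropes of the cytoskeleton, and the lamins are their relatives that line the inside of the nuclear envelope. A set of 10 of these genes was followed among the 29713 genes measured in cultured mouse neural stem cells (NSC): Nes, Vim, Gfap, Synm, Des, Nefl, Nefm, Ina, Lmnb1 and Lmna. The members are a list of names, chosen with earlier results of these data known, and all of them are reported. Which filament proteins a cell makes depends on its kind and maturity: neural progenitors carry nestin with vimentin, astrocytes carry GFAP with vimentin, and neurons carry the neurofilament proteins with α-internexin. B-type lamins are made by nearly all cells, while the amount of A-type lamins depends on the tissue and is low in many neural progenitors.

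RNA was sequenced from NSC of the OG2 strain, mice that carry a Pou5f1 reporter, in 14 libraries. At passage 8, 12 libraries covered undifferentiated cells and days 2, 4 and 8 of differentiation, each under 3 treatments: a control labelled NC, which the labels do not spell out, naloxone, an antagonist of opioid receptors, and DAMGO, a peptide agonist of the mu opioid receptor. A further 2 libraries, from passage 8 and passage 13 with no named treatment, are called the reference libraries here. All 14 share the OG2 strain and the total RNA kit, and the sources used here give no doses, culture media or number of lines or animals. Each condition had 1 library, so the mean and SD of a stage are over its 3 libraries, which also differ in treatment, and p-values measure only the spread between these libraries.

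The libraries held 4143030 to 9070533 estimated counts. Levels are given as CPM (counts relative to the TMM-scaled library total) within a gene and as TPM, which also divides by transcript length, between genes. A floor of 3 counts in a library equalled 0.355 to 0.693 CPM. Undifferentiated libraries had the progenitor factor Sox2 at 318 to 349 CPM and Fabp7 at 1960 to 2040, and at most 0.176 CPM summed over 6 microglia markers. Sox2 does not mark this stage alone, as it was at 512.3 to 557.5 CPM on day 2 and 408.5 to 426.8 on day 8. Sox1, Pax6 and Msi1 were also higher at every later stage. Fabp7 was at 2315 to 3091 CPM on day 2 and 208.5 to 493.5 on day 8. On day 2 the NC library stood apart from its stage: the log2 ratio of a drug library to NC followed the GC content of genes with r = 0.562 for naloxone and 0.518 for DAMGO across genes, which are not independent replicates. On day 8 the naloxone library showed such a trend against NC (r = 0.448), and in the other pairs r lay between -0.041 and 0.132. RNA was extracted in bulk, so fewer cells of a type and less RNA per cell cannot be told apart.

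Positions are in GRCm38 coordinates. Nes (nestin, the filament of neural progenitors) spans 87971078 to 87980451 on chromosome 3, the chromosome that also holds Lmna (lamins A and C) at 88480147 to 88509956. Vim (vimentin) spans 13573927 to 13582826 on chromosome 2, and Gfap (glial fibrillary acidic protein) 102887336 to 102900912 on chromosome 11. Synm (synemin, which joins other filaments to membranes) lies at 67730160 to 67759742 on chromosome 7, and Des (desmin, the filament of muscle) at 75360329 to 75368579 on chromosome 1. The neurofilament genes Nefl, at 68083863 to 68089095, and Nefm, at 68082590 to 68124846, overlap on opposite strands of chromosome 14. Ina (α-internexin) spans 47014698 to 47025327 on chromosome 19. Exons of Ina overlap those of Nt5c2, and exons of Synm those of Ttc23, in both cases on the opposite strand. The sources used here do not say whether counting used strand, so reads from these overlaps cannot be assigned with certainty.

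Promoter sequence is shown for 4 members whose levels changed in different ways over the stages. RefSeq's table for GRCm38.p6 held a start for 7 of the 10 members. The windows are the 250 bases before a start, cut where an annotated exon begins: 235 bases for Nes (chr3:87970843-87971077, plus strand), 250 for Gfap (chr11:102897201-102897450, minus strand), 250 for Ina (chr19:47014431-47014680, plus strand) and 216 for Lmna (chr3:88503387-88503602, minus strand, 1 of 2 starts in the table). Capitals mark matches, on either strand, to 6 motifs of factors known to act in neural cells or of general promoter elements.
Nes: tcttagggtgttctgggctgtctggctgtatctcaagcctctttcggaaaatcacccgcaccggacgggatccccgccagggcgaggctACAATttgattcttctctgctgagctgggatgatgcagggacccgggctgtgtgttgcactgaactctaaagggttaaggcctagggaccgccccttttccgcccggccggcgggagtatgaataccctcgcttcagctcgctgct
Gfap: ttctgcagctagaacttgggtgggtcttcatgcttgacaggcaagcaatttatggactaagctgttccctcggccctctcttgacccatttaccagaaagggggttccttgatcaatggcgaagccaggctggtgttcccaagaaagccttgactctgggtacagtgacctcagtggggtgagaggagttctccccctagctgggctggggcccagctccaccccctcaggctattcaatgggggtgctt
Ina: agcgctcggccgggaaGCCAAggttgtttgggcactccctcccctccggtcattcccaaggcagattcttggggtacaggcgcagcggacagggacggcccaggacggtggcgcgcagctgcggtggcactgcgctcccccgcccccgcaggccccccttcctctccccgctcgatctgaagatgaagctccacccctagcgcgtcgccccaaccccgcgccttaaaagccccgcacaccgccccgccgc
Lmna: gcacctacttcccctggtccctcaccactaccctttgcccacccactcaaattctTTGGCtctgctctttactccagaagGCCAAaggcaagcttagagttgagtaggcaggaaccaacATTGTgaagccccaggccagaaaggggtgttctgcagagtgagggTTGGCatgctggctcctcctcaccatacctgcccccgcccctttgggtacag

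In these windows the SOX core ACAAT stood once before Nes, 161 to 157 bases upstream of the start, and once before Lmna on the opposite strand, at 131 to 127. The NFI half-site TTGGC stood 3 times before Lmna, on either strand, and once before Ina, on the opposite strand. No match to any of the 6 motifs was found before Gfap, and these short windows hold no distal enhancer. Short motifs are common: of 32851 RefSeq windows of the same 250 bases, 41.5% hold TTGGC, 27.7% ACAAT, 33.8% CCAAT (which overlaps TTGGC where ATTGGC is read), 12.4% TATAAA, 7.02% the STAT palindrome TTCNNNGAA and 1.6% the POU octamer ATGCAAAT. A match is a description of letters and no measure of binding.

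Nestin and vimentin transcripts were both abundant in undifferentiated cells and parted by day 8. Nes stood at 1774, 1742 and 1889 CPM in the undifferentiated NC, naloxone and DAMGO libraries. It stood at 485, 378 and 415 on day 2, 180, 183 and 193 on day 4, and 226.9, 310 and 269 on day 8, in the same order. All undifferentiated libraries were above all differentiating ones, and day 4 held the 3 lowest values. Against undifferentiated cells the log2 change of Nes was -2.09 ± 0.12 (SE) on day 2, -3.29 ± 0.13 on day 4 and -2.75 ± 0.13 on day 8, with adjusted p of 2.05e-07, 9.17e-09 and 1.55e-08 (edgeR's quasi-likelihood test, Benjamini-Hochberg over 13144 genes). From day 4 to day 8 Nes rose by 0.54 ± 0.12 (adjusted p = 0.0027, edgeR), a call that ended on the TPM scale, where the change was 0.10 (adjusted p = 0.539, limma on log2(TPM + 1)).

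Vim fell first and then rose past its starting level. Its CPM were 3013, 2977 and 3024 in undifferentiated cells, 1965, 1921 and 2090 on day 2, 1290, 1303 and 1340 on day 4, and 6670, 6871 and 6800 on day 8. The 4 stages did not overlap. The log2 change of Vim was -0.60 ± 0.06 on day 2 and -1.20 ± 0.06 on day 4, and on day 8 Vim stood 1.17 ± 0.06 above undifferentiated cells (log2 ± SE, edgeR, adjusted p = 1.83e-08). With a trend on GC content and length removed, that rise of Vim was 0.58 (adjusted p = 1.02e-05). The step from day 4 to day 8 was 2.37 ± 0.06.

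Gfap was near the counting floor in NSC and became, with Vim, 1 of the 2 most abundant members. Undifferentiated libraries held 4.04, 0.691 and 2.28 CPM (NC, naloxone, DAMGO), from 20, 4 and 13 counts, and the reference libraries had 3 counts each. Gfap was at 8.84, 6.71 and 8.25 CPM on day 2, at 461, 518 and 550 on day 4, and at 8415, 9031 and 8926 on day 8. Every stage lay above the one before it in all 3 libraries. The log2 rise against undifferentiated cells was 1.79 ± 0.35 on day 2 (edgeR, adjusted p = 0.000988), 7.80 ± 0.27 on day 4 and 11.91 ± 0.29 on day 8. Without the undifferentiated NC library, which held 20 of the 37 counts of its stage, the rises of Gfap were 2.43, 8.43 and 12.54, and on log2(TPM + 1) that of day 8 was 11.15. The step from day 2 to day 4 was 6.01 ± 0.22, and that from day 4 to day 8 was 4.11 ± 0.19.

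**Figure D1:**
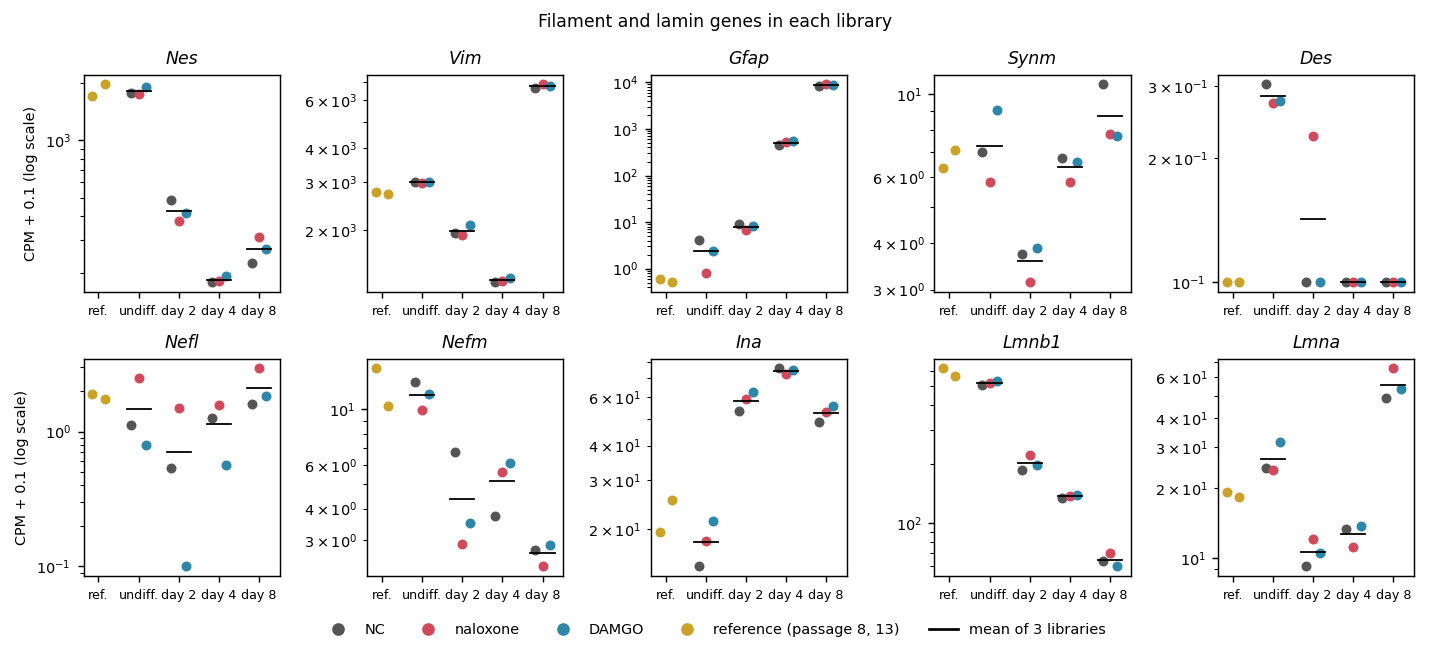
Level of each member (vertical axes, CPM + 0.1 on a log scale that differs between panels) by stage, with the 2 reference libraries at the left of each panel. Points are single libraries coloured by treatment and bars are means of 3 libraries, and Gfap climbs from 2.34 to 8791 CPM while Nes and Lmnb1 drop.

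Astrocyte genes other than Gfap also rose, with a different time course. Of 14 listed astrocyte markers, 13 were higher than in undifferentiated cells in each of the 3 comparisons (not necessarily the same 13), and none was lower. Their summed level was 2183 to 2246 CPM in undifferentiated cells and 11260 to 12980 on day 2. It was 14120 to 14340 CPM on day 4 and 30510 to 33820 on day 8, when Apoe alone had a mean of 15510. Among the markers were Clu, a secreted chaperone, up by 10.19 ± 0.20 on the log2 scale on day 8, and Aqp4, a water channel, up by 7.73 ± 0.38. Apoe, a lipid carrier, was up by 7.38 ± 0.12, and Gja1, a gap junction protein, by 7.003 ± 0.10. The list had median log2 changes of 3.05, 3.28 and 4.19 over the 3 later stages, when Gfap had risen by 1.79, 7.80 and 11.91. The median over all genes tested was -0.01, 0.00 and 0.05 on day 2, day 4 and day 8. What part cell make-up had in these levels was not tested.

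Transcripts of synemin, which joins other filaments, and of desmin, the filament of muscle, were minor. Synm had 541 counts in all 14 libraries. It stood at 6.87, 5.70 and 8.95 CPM in undifferentiated cells, 3.62, 3.04 and 3.77 on day 2, 6.63, 5.71 and 6.47 on day 4, and 10.5, 7.69 and 7.62 on day 8. The day 2 libraries were below all others, and day 4 and day 8 overlapped the undifferentiated range. Synm fell by 1.05 ± 0.20 on day 2 (edgeR, adjusted p = 0.000949), its change on day 4 was -0.20 ± 0.19 (adjusted p = 0.398) and on day 8 0.26 ± 0.18 (adjusted p = 0.211). From day 2 to day 4 it rose by 0.85 ± 0.21, and the step to day 8, 0.45 ± 0.19, missed the threshold (adjusted p = 0.0502). Ttc23, whose exons overlap it, was higher than in undifferentiated cells by 2.65 ± 0.16 on day 2, when Synm was lower.

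Des was not expressed at a level these libraries could resolve. It had 4 counts in all, 1 in each undifferentiated library of the drug experiment and 1 in the day 2 naloxone library, and it was not tested. Of 10 muscle markers only the cardiac actin gene Actc1 passed the filter on low counts, and 5 (Myog, Myf5, Pax7, Acta1 and Myl1) had at most 3 counts over 12 libraries. Actc1 was higher on day 2 by 1.78 on the log2 scale and lower on day 8 (-2.82 ± 0.45). The summed muscle list was 3.46 to 4.56 CPM in undifferentiated cells, 9.15 to 14.1 on day 2, 0.737 to 1.62 on day 4 and 0.355 to 0.865 on day 8. Pericytes can also make desmin. Of 12 pericyte and mesenchyme markers 3 were tested, and all 3 were higher on day 8: Pdgfrb, a growth factor receptor, by 7.99 ± 0.28, Acta2 by 3.54 ± 0.46 and Tagln by 1.84 ± 0.49. The low-count filter can admit a gene through the stage where it is high, so their shared direction says nothing about the untested markers.

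Of the 3 genes of neuronal filaments, Nefm was lower and Ina higher after differentiation began, and Nefl was too low to test. Nefm, the medium neurofilament chain, stood at 12.7, 9.85 and 11.4 CPM in undifferentiated cells, 6.67, 2.78 and 3.41 on day 2, 3.64, 5.53 and 6.01 on day 4, and 2.63, 2.25 and 2.77 on day 8. All undifferentiated values were above all later ones, and day 8 held the 3 lowest. Its log2 change was -1.42 ± 0.29 on day 2 (edgeR, adjusted p = 0.00125), -1.17 ± 0.29 on day 4 and -2.14 ± 0.31 on day 8 (adjusted p = 8.9e-05). Day 4 against day 2 gave 0.25 ± 0.32 (adjusted p = 0.526), and the fall by 0.97 ± 0.34 from day 4 to day 8 (adjusted p = 0.0268) missed the threshold without any 1 of 5 of the libraries of those stages, with adjusted p of 0.0544 without DAMGO on day 8, 0.0729 without naloxone on day 8, 0.0818 without NC on day 8, 0.0974 without DAMGO on day 4 and 0.127 without naloxone on day 4.

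Nefl, the light chain, had 119 counts in 14 libraries and did not pass the filter for the 12 libraries. Its estimated counts were 5, 14 and 4 in undifferentiated cells, 3, 11 and 0 on day 2, 6.74, 8 and 2.04 on day 4, and 8, 24 and 10 on day 8 (NC, naloxone, DAMGO). The stages overlapped. The heavy chain gene Nefh had 22 counts in all and the peripherin gene Prph 19, so no stage change could be measured for these neurofilament relatives at this depth.

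Ina, a neuronal filament that appears early in development, was higher at every stage of differentiation than before it. It stood at 14.6, 17.97 and 21.2 CPM in undifferentiated cells, 53.2, 58.6 and 62.3 on day 2, 75.9, 72.7 and 74.6 on day 4, and 48.4, 52.8 and 55.7 on day 8. All 9 differentiating libraries were above the undifferentiated ones, and day 4 was highest. The log2 rise was 1.69 ± 0.11 on day 2, 2.06 ± 0.11 on day 4 and 1.54 ± 0.11 on day 8 (edgeR, adjusted p = 3.1e-07 on day 8). Between day 2 and day 4 it rose by 0.37 ± 0.10 (adjusted p = 0.00931), which missed the threshold without the day 4 NC library (0.27, adjusted p = 0.0518), and from day 4 to day 8 it changed by -0.52 ± 0.10. Nt5c2, which shares exon positions with Ina on the other strand, was higher by 0.54 ± 0.09, 0.58 ± 0.09 and 0.38 ± 0.09 at the same stages.

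Other neuronal genes were mixed. Of 13 neuron markers 6 were higher and 4 lower on day 8, with a median log2 change of 0.08, beside 80.1% of all genes called. Rbfox3, a marker of mature neurons, was up by 3.52 ± 0.19, Stmn2 by 4.16 ± 0.56 and Dcx, a marker of young neurons, by 2.70 ± 0.27, while Elavl4 was lower (-3.94 ± 0.35). Dcx was highest on day 4, with a mean of 335 CPM against 12.01 in undifferentiated cells, and day 4 was also the peak of Ina. Rbfox3 had means of 12.8 CPM on day 4 and 12.7 on day 8. Stmn2 was highest on day 8 (5.79) and Elavl4 in undifferentiated cells (70.5). A highest mean on day 4 was not particular to neuron markers. The oligodendrocyte genes Gpr17 (1188 CPM) and Sox10 (63.0) had it too, while Mbp was highest on day 8 (56.9). On day 4, 7 of the 13 neuron markers were higher and 3 lower, and on day 2, 5 were higher and 5 lower. Their summed level ranged from 1148 to 2214 CPM among the 3 libraries of day 2, the stage whose NC library stood apart.

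Among the lamins, Lmnb1 (lamin B1) fell throughout and Lmna fell before it rose. Lmnb1 spans 56707813 to 56753424 on chromosome 18. Lmnb1 stood at 506, 519 and 533 CPM in undifferentiated cells, 185, 222 and 197 on day 2, 134, 137 and 138 on day 4, and 63.6, 69.9 and 59.7 on day 8. The 4 stages did not overlap, and each was below the one before. Its log2 changes against undifferentiated cells were -1.38 ± 0.07, -1.93 ± 0.07 and -3.02 ± 0.08 (edgeR, adjusted p = 3.39e-10 on day 8). All 9 proliferation markers were lower on day 2, day 4 and day 8, with median log2 changes of -3.59, -5.36 and -6.03, and their summed level was 6390 to 6534 CPM in undifferentiated cells and 171 to 215 on day 8. On day 8 the log2 change was -10.24 ± 0.37 for Mki67, -7.59 ± 0.25 for Top2a, -7.03 ± 0.12 for Ccna2 and -6.71 ± 0.15 for Ccnb1. Their part in the fall of Lmnb1 was not tested.

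Lmna stood at 24.3, 23.9 and 31.6 CPM in undifferentiated cells, 9.13, 12.02 and 10.4 on day 2, 13.3, 11.1 and 13.6 on day 4, and 48.6, 65.3 and 53.3 on day 8. Day 2 and day 4 overlapped, the undifferentiated libraries lay above both, and day 8 was above all. The log2 change of Lmna was -1.34 ± 0.16 on day 2 and -1.07 ± 0.16 on day 4, and on day 8 Lmna was 1.07 ± 0.14 higher than in undifferentiated cells (edgeR, adjusted p = 5.34e-05). With a trend on GC content and length removed, that rise of Lmna was 0.42 (adjusted p = 0.00945). From day 4 to day 8 it rose by 2.14 ± 0.16, and day 4 against day 2 gave 0.27 ± 0.18 (adjusted p = 0.218), a difference that passed once the same trend was removed (0.54, adjusted p = 0.00501). Lmnb2, the other B-type lamin and no member, fell by 0.96 ± 0.09 on day 8.

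**Figure D2:**
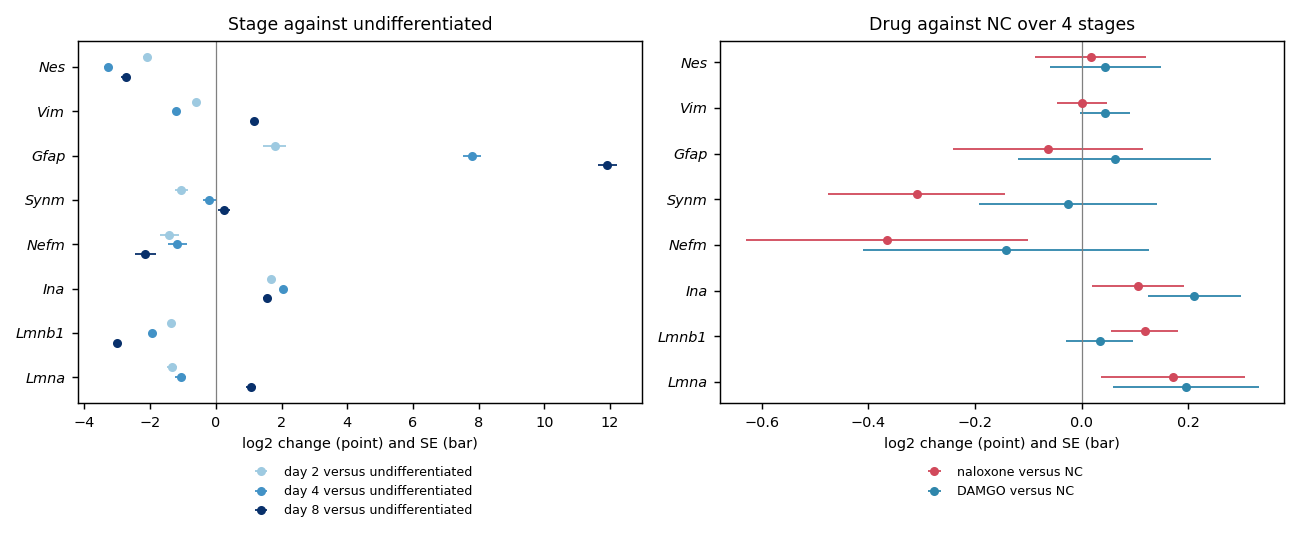
Fitted log2 change (points, horizontal axis) with its SE (bars) for the 8 members tested over 12 libraries. The left panel sets each stage against undifferentiated cells, where Gfap on day 8 reaches 11.91, and the right panel, on a much narrower axis, sets each drug against NC, where every value lies between -0.37 and 0.21.

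Across the set, all 8 tested members differed from undifferentiated cells on day 2, with 2 higher and 6 lower, beside 69.7% of all genes tested. On day 4, 2 were higher, 5 lower and 1 did not pass, beside 62.3% of all genes. On day 8, 4 were higher (Vim, Gfap, Ina, Lmna), 3 lower (Nes, Nefm, Lmnb1) and 1 did not pass (Synm), beside 80.1%. From day 2 to day 4, 3 of the 8 rose and 3 fell, where 51.9% of genes were called, and from day 4 to day 8, 4 rose and 3 fell, where 68.6% were. The member shares lay above those of all genes, but 8 members are too few for the counts to say anything particular about filament genes. The shares of all genes called (69.7% on day 2, 62.3% on day 4 and 80.1% on day 8) are also the background for every other list counted in this report. Median log2 changes of the members were -1.19, -1.12 and 0.66 on day 2, day 4 and day 8. Without the day 2 NC library the 8 calls on day 2 had the same direction, from -2.19 for Nes to 1.76 for Ina.

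The split of calls over all genes depended on the scale. TPM values shift the median gene by 0.159 on day 4 and by -0.159 on day 8 on the log2(TPM + 1) scale, by 0.205 for day 4 against day 2 and by -0.294 for day 8 against day 4. On day 4 the main fit called 4122 genes higher and 4070 lower, and limma on log2(TPM + 1) 4925 and 2967. On day 8 these counts were 5470 and 5062 in the main fit and 4405 and 5696 on TPM. For day 4 against day 2 they were 3564 and 3260 against 4755 and 1565, and for day 8 against day 4 they were 4880 and 4142 against 2530 and 6087. No stage difference of a member changed direction in any alternative run.

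The make-up of the filament pool turned over from vimentin with nestin to vimentin with GFAP. As a share of the summed TPM of the 8 cytoplasmic filament genes, Vim was 85.7 ± 0.652% in undifferentiated cells (SD, n = 3), 92.9 ± 0.820% on day 2, 74.7 ± 1.46% on day 4 and 54.1 ± 1.07% on day 8. Nes went from 13.7 ± 0.606% to 5.32 ± 0.799%, 3.004 ± 0.165% and 0.572 ± 0.0839%. Gfap went from 0.0423 ± 0.0300% to 0.236 ± 0.0352%, 19.8 ± 1.34% and 45.0 ± 0.987%. So Vim led at every stage, also on day 2 and day 4 when its own level was down, and Nes was second until day 2 and Gfap from day 4.

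Ina held a few percent at most, below Nes at every stage. Its share was 0.262 ± 0.0501% in undifferentiated cells, 1.39 ± 0.0623% on day 2, 2.30 ± 0.0889% on day 4 and 0.215 ± 0.00922% on day 8. Its share of day 8 was thus at the undifferentiated level, although its own CPM was higher, in a pool that had grown: the 8 genes summed to 4261 ± 61.5 TPM in undifferentiated cells, 2541 ± 77.0 on day 2, 2304 ± 37.3 on day 4 and 13090 ± 496 on day 8. Nefm held 0.161 ± 0.0184% at the start and 0.0101 ± 0.00103% on day 8, and Synm 0.0457 ± 0.0108% and 0.0158 ± 0.00312%. Nefl and Des held at most 0.0431% in any of the 12 libraries.

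**Figure D3:**
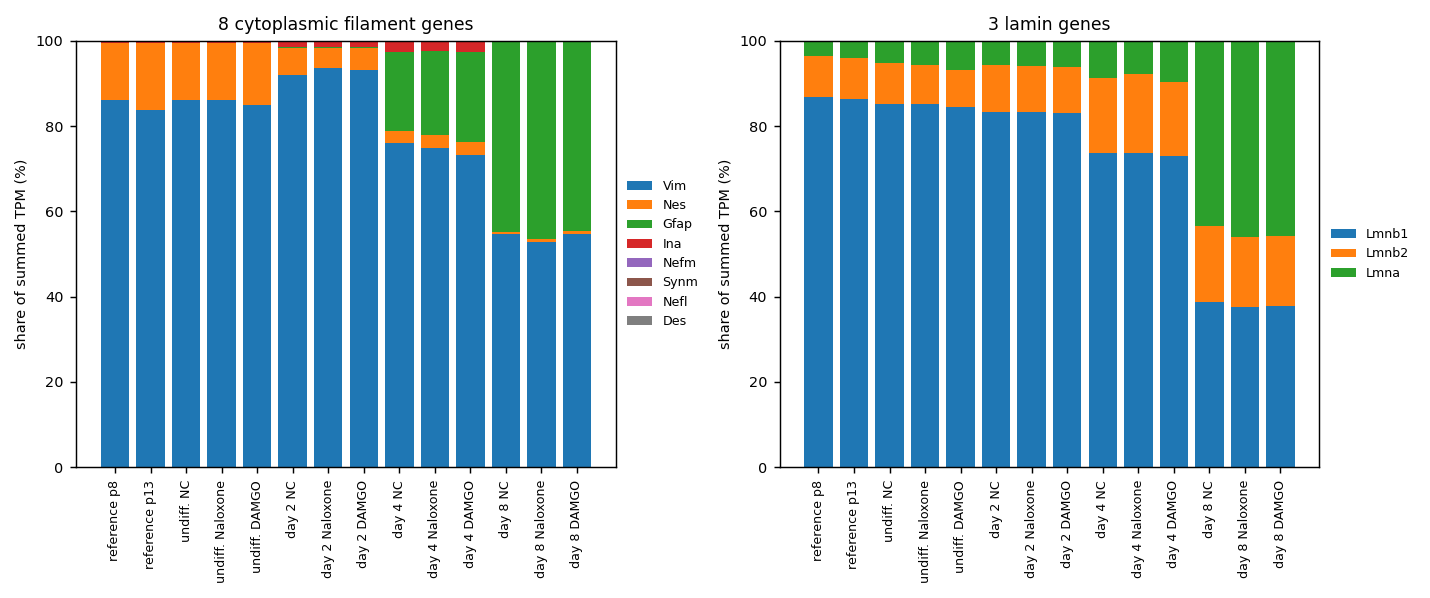
Share of summed TPM (vertical axes, percent, bars from 0) in each of the 14 libraries for the 8 cytoplasmic filament genes (left) and 3 lamin genes (right). Gfap takes 45.0% of the filament pool and Lmna 45.1% of the lamin pool on day 8.

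In the lamin pool of Lmna, Lmnb1 and Lmnb2, the summed TPM fell from 444 ± 12.9 to 174 ± 12.3, 153 ± 2.07 and 107 ± 13.9. Lmnb1 held 85.0 ± 0.477% of it in undifferentiated cells, 83.3 ± 0.111% on day 2, 73.5 ± 0.440% on day 4 and 38.1 ± 0.618% on day 8. Lmna held 5.92 ± 0.931%, 5.97 ± 0.176%, 8.73 ± 0.934% and 45.1 ± 1.497%. Lmnb2 held 9.13 ± 0.477%, 10.8 ± 0.102%, 17.8 ± 0.605% and 16.8 ± 0.907%. The TPM ratio of Lmna to Lmnb1 was 0.0603 to 0.0824 in undifferentiated libraries, 0.0695 to 0.0739 on day 2, 0.105 to 0.132 on day 4 and 1.12 to 1.23 on day 8. In the reference libraries it was 0.0423 and 0.0478.

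Ratios between members need no scaling between libraries, and 6 were tested over the 4 stages by an exact permutation test of all 15400 ways to place 12 libraries in 4 stages of 3, with p adjusted over the 6. Gfap to Vim and Nes to Vim differed among stages at 6.5e-05, the smallest p these permutations can give (adjusted p = 0.000195 each). In log2, Gfap to Vim went from -11.19 ± 1.18 to -8.61 ± 0.23, -1.92 ± 0.13 and -0.27 ± 0.06 (SD, n = 3), and Nes to Vim from -2.64 ± 0.07 to -4.14 ± 0.22, -4.64 ± 0.10 and -6.57 ± 0.24. For Lmna to Lmnb1 the exact permutation p was 0.000455 (adjusted p = 0.000909), with -3.85 ± 0.23, -3.79 ± 0.04, -3.07 ± 0.16 and 0.24 ± 0.07. For Synm to Nes it was 0.000649 (adjusted p = 0.000974), with means from -8.18 to -5.12.

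The ratios of neuronal filament genes gave larger p-values in the same test. Ina to Nefm had an exact permutation p of 0.0105 (adjusted p = 0.0125) and went from 0.68 ± 0.39 in undifferentiated cells to 3.86 ± 0.74, 3.92 ± 0.39 and 4.31 ± 0.17 in log2, and the ranges of the later stages overlapped. Nefl to Nefm missed the threshold (exact permutation p = 0.0777, also after adjustment) with SDs up to 1.77. Des to Vim was not computed, since Des had no count in 10 of the 14 libraries.

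**Figure D4:**
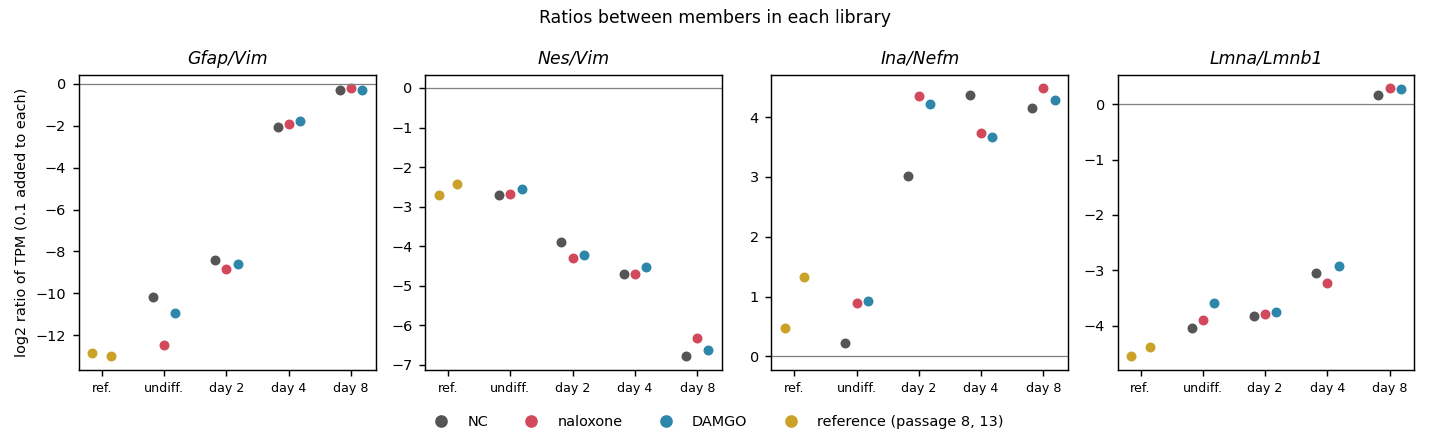
Ratio of TPM between pairs of members in each library (vertical axes, log2 with 0.1 TPM added to each gene) by stage and treatment, with the reference libraries at the left. A line marks equal TPM, which Lmna passes on day 8 (mean 0.24) and Gfap nearly reaches against Vim (mean -0.27).

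Ordered by TPM in undifferentiated cells, Vim (3653 ± 61.8) led, followed by Nes (585 ± 26.3), Lmnb1 (377 ± 8.81), Lmna (26.4 ± 4.93), Ina (11.2 ± 2.07) and Nefm (6.86 ± 0.881). Below them came Synm (1.95 ± 0.469), Gfap (1.81 ± 1.31), Nefl (0.820 ± 0.544) and Des (0.383 ± 0.211). The range of Gfap overlapped those of Synm and Nefl, and the range of Nefl overlapped that of Des. On day 8 the order was Vim (7088 ± 260), Gfap (5899 ± 289), Nes (75.1 ± 12.9), Lmna (48.2 ± 7.23), Lmnb1 (40.6 ± 4.85), Ina (28.1 ± 2.24) and Synm (2.06 ± 0.321). The ranges of Lmna and Lmnb1 overlapped there, and so did those of Nefm (1.33 ± 0.127) and Nefl (1.04 ± 0.384).

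Transcript lengths, which RSEM weights by isoform, moved little. The stage means differed by over 5% for Synm (7.45%), Lmna (8.47%) and Des, whose value rests on 4 counts. Exact permutation tests over stages gave adjusted p of 0.152 for Gfap, 0.218 for Synm and 0.298 for Lmna, so no member showed a shift past the threshold. Nefl and Ina have a single transcript in the files.

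The drug comparisons ask whether blocking or activating opioid receptors changes these levels, and no member passed the test. Against NC, 0.0% of genes were called for naloxone, 0.0% for DAMGO and 0.0% for naloxone against DAMGO. At an unadjusted p under 0.05, edgeR listed 1332, 314 and 229 genes, and DESeq2, limma-voom and limma on TPM called 0 in each. For naloxone the values were 0.02 ± 0.10 for Nes, 0.00 ± 0.05 for Vim, -0.06 ± 0.18 for Gfap and 0.11 ± 0.09 for Ina. Synm was at -0.31 ± 0.17 (edgeR, adjusted p = 0.478) and lower than NC at 4 of 4 stages. Lmnb1 was at 0.12 ± 0.06 (edgeR, adjusted p = 0.476) and higher at 4 of 4, Lmna at 0.17 ± 0.14 and Nefm at -0.37 ± 0.27.

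For DAMGO, Ina had the lowest p of the members: 0.21 ± 0.09 (edgeR, adjusted p = 0.951), higher than NC at 3 of 4 stages. Vim was at 0.04 ± 0.05 and Lmna at 0.20 ± 0.14, both higher at 4 of 4 stages, and Nes was at 0.04 ± 0.10, Gfap at 0.06 ± 0.18, Lmnb1 at 0.03 ± 0.06, Synm at -0.03 ± 0.17 and Nefm at -0.14 ± 0.27. Naloxone against DAMGO ranged over the members from -0.28 ± 0.17 for Synm to 0.08 ± 0.06 for Lmnb1. The estimates for abundant members are tight, with an SE of 0.05 for Vim, and those for Nefm, Gfap and Synm leave room for differences that these libraries could not resolve. Untested Nefl had more CPM with naloxone than with NC at 4 of 4 stages, from 3 to 24 counts a library.

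Whether a drug acted differently on differentiating and undifferentiated cells was tested with an interaction, which called 0.0% of genes for naloxone and 0.0% for DAMGO. At an unadjusted p under 0.05 edgeR listed 226 and 212 genes. Gfap, which is among those 226, gave the largest value of the members, 2.55 ± 0.51 for naloxone (adjusted p = 1), and 0.94 ± 0.40 for DAMGO (adjusted p = 1). It rests on the undifferentiated libraries with their 20, 4 and 13 counts.

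In the reference libraries Nes stood at 1703 CPM at passage 8 and 1959 at passage 13, Vim at 2777 and 2711, Lmnb1 at 616 and 562, Lmna at 19.3 and 18.2, Ina at 19.4 and 25.3, Nefm at 14.5 and 10.2 and Synm at 6.25 and 6.96. Passage 13 against passage 8 called 0 of 9 tested members, with 0.0222% of 13497 genes called, and no member had an unadjusted p under 0.05 by edgeR. Passage 8 against the undifferentiated NC library called 0 of 9 as well, with 0.333% of genes called. In that comparison Gfap was at -2.15 ± 0.93 (adjusted p = 0.385) and Lmnb1 at 0.30 ± 0.11 (adjusted p = 0.292) in edgeR, both under 0.05 before adjustment and both between single libraries, with the spread taken from the other 12.

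Filament and lamin genes outside the set were few in these cells. Of 15 other such genes 4 were tested, and on day 8 Sync (syncoilin, which binds filaments in muscle) was higher by 3.66 ± 0.48, Bfsp2, known from the lens, by 1.37 ± 0.45 and Krt10 by 0.83 ± 0.22, while Lmnb2 was lower. Their median log2 change was 1.10, and Sync reached 4.11 ± 0.797 CPM. On day 2 and on day 4, 2 of these 4 were higher and 1 lower. Krt18 had no count before day 8 and 18 counts in the day 8 libraries, Krt8 had 8 counts in all, and Krt19, Krt5 and Krt14 had none.

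Partners of the lamina at the nuclear envelope split, as did all genes tested. Over all genes, 80.1% were called on day 8, 69.7% on day 2 and 62.3% on day 4. Of 15 partners tested, 6 were higher and 6 lower on day 8. On day 2 and on day 4, 3 partners were higher and 6 lower. The partners had medians of -0.17, -0.03 and -0.03 on day 2, day 4 and day 8. Those with the largest changes on day 8 fell: Nrm, an inner membrane protein (-3.09 ± 0.19), Lbr, the lamin B receptor (-2.995 ± 0.09), Tmpo, which encodes LAP2 (-2.69 ± 0.10), and Syne2, a link to the cytoskeleton (-1.82 ± 0.23). Lbr thus fell beside Lmnb1, with means of 110, 31.9, 30.5 and 13.8 CPM over the 4 stages. Of the 5 genes that process prelamin, Fnta (1.61 ± 0.09), Fntb (0.45 ± 0.12), which together form farnesyltransferase, and the methyltransferase gene Icmt (0.39 ± 0.10) were higher on day 8 and none lower, with a median of 0.39. On day 2 and on day 4, 1 was higher and 1 lower.

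Plectin led the linkers between filaments and other structures. The mean level of Plec was 4.55 ± 1.25 CPM in undifferentiated cells, then 18.6, 64.6 and 214 ± 36.4 over the later stages, a log2 change of 5.54 ± 0.21. Of the 5 tested, Dtna (dystrobrevin alpha) was also higher on day 8, by 1.01 ± 0.11, and Dmd (dystrophin, -1.27 ± 0.25) and Dst (dystonin, -0.82 ± 0.31) were lower, and the median was -0.42. On day 2, 2 were higher and 2 lower, and on day 4, 3 were higher. The summed list ranged from 570 to 1459 CPM among the 3 libraries of day 2, where the NC library stood apart.

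Of 12 kinases known to phosphorylate filaments or lamins, 2 were higher and 6 lower on day 8 (2 and 6 on day 2, 2 and 7 on day 4), with a median log2 change of -0.33. Over all genes 80.1% were called on day 8, the background for this list and for the chaperones below. The mitotic kinase genes Aurkb (-6.07 ± 0.27), Plk1 (-5.68 ± 0.17) and Cdk1 (-5.42 ± 0.14), whose product drives lamina disassembly, changed most, beside the kinase gene Rock1 (-4.26 ± 0.45). Among genes of filament chaperones and turnover, 6 of 10 were higher and 1 lower on day 8, after 4 and 5 on day 2 and 6 and 3 on day 4, and the median was 1.22 on day 8. The small heat shock genes Hspb8 and Cryab, whose product binds GFAP, were higher by 8.49 ± 0.18 and 6.30 ± 0.11, and the calpain genes Capn1 and Capn2 by 5.66 ± 0.32 and 2.18 ± 0.06.

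Genes of factors known to act on Nes or Gfap, from SOX, POU and NFI proteins to the receptors and kinases upstream of STAT3, were 20 in number and all tested. On day 2, 12 were higher and 1 lower, on day 4, 13 and 4, and on day 8, 9 and 6, with a median of -0.01. Over all genes tested, 69.7% were called on day 2, 62.3% on day 4 and 80.1% on day 8. Il6st, the shared receptor chain gp130, rose by 3.25 ± 0.08 on day 8, from 80.5 ± 3.82 to 769 ± 51.0 CPM. The log2 change was -1.54 ± 0.19 for Lifr, its partner chain, -1.53 ± 0.29 for Jak2 and -2.43 ± 0.30 for Nfib. On day 4, when Gfap had risen by 7.80, Il6st was at 2.01 and Lifr at -0.60, both past the threshold, and Nfib at -0.17 and Jak2 at -0.03, neither past it. Among the 3 libraries of day 2, Nfib (189 ± 121 CPM, SD), Jak2 (114 ± 68.6) and Lifr (83.2 ± 32.6) varied widely. Il6st did not (168 ± 3.15).

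Other cell types that use these filaments were read from their markers. Oligodendrocyte lineage genes were higher for 6 and lower for 3 of 9 on day 8 (7 and 1 on day 2, 6 and 3 on day 4), with Gpr17 (6.18 ± 0.14), Mbp (5.46 ± 0.21) and Sox10 (4.09 ± 0.16) up. The lower ones were Cspg4 (-1.92 ± 0.11), Olig2 (-1.37 ± 0.07) and Olig1 (-1.05 ± 0.07). The summed list rose before it fell. It was 2664 to 2861 CPM in undifferentiated cells, 4506 to 5316 on day 2, 4178 to 4250 on day 4 and 2019 to 2143 on day 8. Enpp6, with no count in undifferentiated cells of the drug experiment, was at least 24.3-fold higher on day 8 against a floor of 3 counts over that group. Of the Schwann and neural crest genes, Prx was up by 1.04 ± 0.24 on day 8, and Egr2 and Pou3f1 were lower (-5.42 ± 0.34 and -4.33 ± 0.35). The only endothelial gene tested, Kdr, rose by 3.35 ± 0.22 to 20.6 ± 3.85 CPM, while Cdh5 and Cldn5 had no count. No microglia gene could be tested. Median log2 changes on day 8 were 3.57 for the oligodendrocyte list (the same with Enpp6 at its bound) and 3.54 for the 3 tested genes of the pericyte list. The part of these cells in the members' levels was not tested.

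Among named genes with a mean of at least 5 CPM, those whose log2 level ran most like a member's over the 12 libraries were listed, as a description in which all 12 points share 4 stages. Ccnd2, a cyclin, was closest to Nes (Pearson r = 0.9942), Myadm to Vim (0.9958), Ppp2r5a to Gfap (0.9965) and Cacna1b to Lmnb1 (0.9939). The next closest to Gfap was Padi2 (0.9959), a peptidylarginine deiminase, with means of 2.15, 6.60, 174 and 853 CPM over the stages. For Lmna it was Oxnad1 (0.9865), for Ina Rnf144a (0.9919), for Nefm Tigd2 (0.9777) and for Synm Irak1bp1 (0.9483). Hspb6, a small heat shock gene, was second for Vim (0.9914), with means of 11.1, 7.63, 3.05 and 43.8 CPM, and so dipped and rose as Vim did.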

How the data were processed

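The authors deposited RSEM gene tables, 1 per library, with an expected count, a TPM, an FPKM and an isoform-weighted length per gene, per the file headers. Bowtie and RSEM were run on mm10, per the submitters' processing notes, with versions not stated there. The FPKM values the authors deposited were not analysed. Expected counts, not whole for 10.4 to 13.1% of genes, were rounded. The deposited TPM served for shares, ratios and comparison between genes.

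Tests were edgeR's quasi-likelihood tests (edgeR 4.0.16, R 4.3.3) after TMM scaling and edgeR's own low-count filter. The filter worked by stage, so a gene could pass through the stage where it was high. The model was additive in stage and treatment over 12 libraries with 6 residual degrees of freedom (4 with the interaction), so the spread holds library noise and drug effects that differ between stages, and p-values rest on single libraries per condition. Reference libraries had terms of their own in a model of 14. P-values were adjusted over all genes, with a threshold of 0.05. Alternatives used limma 3.58.1, DESeq2 1.42.0 and mgcv 1.9.3. The code was tested on simulated data. Of the gene identifiers, 29202 were found in GENCODE vM21.

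The members and the gene lists were chosen with earlier results of these data known. All members are reported, with up to 4 called genes of largest change at day 8 per list, genes of the list of other filaments with or without a call, and the genes most alike in level. Counts of called genes of the Schwann and neural crest list are not reported here.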

Additional observations from a re-analysis of the deposited data

How the results depend on the processing

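With 1 library per condition, depth limits Des, Nefl and Gfap in undifferentiated cells most. Counts of called genes for the 5 stage comparisons stayed within 1.5 times in every alternative run, and no stage difference of a member reversed. Among stage differences not named above, Synm at day 4 passed with the GC and length trend removed (-0.45, adjusted p = 0.0457), and Synm from day 4 to day 8 passed with that trend removed (0.48), without the undifferentiated DAMGO library (0.45) or without the day 8 DAMGO library (0.61); the cause was not tested. Drug comparisons called 0 genes except 2 for DAMGO against NC and 2 for naloxone against DAMGO without the day 8 DAMGO library, so leaving out a library gave 0 to 2. Passage 13 against passage 8 called 7 genes with no filter on low counts against 3, and the cause was not tested. Shares from counts divided by the median length, instead of TPM, were 14.7% for Nes and 84.8% for Vim in undifferentiated cells, 1.46% for Ina, 83.1% for Lmnb1 and 11.1% for Lmnb2 at day 2, and 73.0% for Lmnb1 at day 4; the cause was not tested. Drug differences that changed sign, none of them past the threshold in any setting, are these. With the GC and length trend removed, naloxone gave -0.06 for Nes and -0.01 for Lmna, and DAMGO -0.03 for Vim, -0.19 for Gfap and -0.03 for Lmnb1. For Gfap, naloxone gave 0.07 in limma-voom, 0.07 in differentiating libraries alone and 0.06 without the day 2 libraries, and DAMGO gave -0.01 in DESeq2, -0.10 on log2(TPM + 1) and -0.16 on log2(TPM + 0.1). On those TPM scales DAMGO gave 0.01 and 0.02 for Synm, and without the day 2 libraries 0.14 for Nefm. Naloxone against DAMGO gave 0.03 for Nes in differentiating libraries alone and 0.00 without the day 2 libraries, and for Lmna 0.02 in limma-voom and 0.14 in differentiating libraries alone. Leaving out each library in turn gave -0.09 to 0.15 for Nes and -0.19 to 0.10 for Gfap with naloxone, -0.05 to 0.17 for Nes, -0.07 to 0.15 for Gfap, -0.17 to 0.12 for Synm and -0.40 to 0.15 for Nefm with DAMGO, and -0.14 to 0.05 for Nes and -0.17 to 0.09 for Lmna between the drugs. The additive model matched each drug library to the NC library of its stage, with 1 library per treatment at each stage. No finer pairing was possible because the labels give no replicate numbers.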
